A study of Homo sapiens with 6 samples.

Results

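Chemokine receptors are seven-transmembrane receptors that couple to Gi proteins and steer migrating cells along gradients of small secreted proteins, the chemokines. On binding, the Gi subunits activate phosphoinositide 3-kinase and Rac regulators, and receptor kinases and arrestins then silence the receptor. CCR6 answers to CCL20 and is best known on B cells, on T cells that make interleukin 17 and on immature dendritic cells, while CCR3, the receptor for the eotaxins, is a hallmark of mature eosinophils. The genes examined were CCR6 and 6 further receptors, CCR1, CCR2, CCR3, CCR7, CXCR3 and CXCR4, out of 35052 genes with matched transcripts. Reads were summed over the transcripts of each gene. CCR6 was chosen by its difference in read counts between the groups in these same libraries and the others as members of its family, so differences between groups in these 7 genes are given as descriptions without a test.

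EoL-1 is an established line from a human eosinophilic leukaemia, and its cell type is labelled eosinophil. RNA-seq libraries came from 3 samples with the genotype JUN knockout and 3 with the genotype ATF3/JUN double knockout, and the labels name CRISPR/Cas9 as the means of knocking out ATF3. No drug or stimulus is named. By genotype all 6 lacked JUN, so the groups differ by the loss of ATF3, and no unedited library was analysed here. The labels do not say whether replicates were clones or repeat cultures, so each SD measures the spread between these libraries. Each SE comes from a fit that also draws on the spread of other genes. File names carry a code after JUN, of unstated meaning, that libraries with the same number share across groups. JUN mRNA was at 21.7 ± 7.42 CPM (reads of a gene scaled to TMM-adjusted library size) in the JUN knockout and 18.7 ± 6.21 in the double knockout, and ATF3 mRNA at 14.3 ± 5.68 and 10.2 ± 2.72 CPM (SD, n = 3 each), and these mRNA levels do not check the edits.

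The libraries held 26146998 to 29567970 estimated reads. JUN knockout replicate 1 stood apart from replicates 2 and 3 of its group, with a mean chi-square per gene of 45.4 and 72.6 against 13.5 between the latter, and double knockout replicate 3 stood apart from replicates 1 and 2 (41.3 and 34.9, against 12.3). Of 14 eosinophil markers, 2 (the granule ribonucleases RNASE2 and RNASE3) reached a mean of 1 TPM (abundance per length, as a share of all transcripts in the library) in each group, and EPX, PRG3, CLC and IL5RA had 0 reads in all 6 libraries. The summed TPM of the eosinophil list was 71.4 to 195 in the JUN knockout and 121 to 187 in the double knockout. In a bulk sample, fewer cells with a transcript and less of it per cell cannot be told apart.

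CCR6 (ENSG00000112486) spans chromosome 6 from 167111807 to 167139696 of GRCh38 on the plus strand. The annotation gives it several starts, and the RefSeq promoter windows of the 2 starts that carried most of its reads are shown because the transcripts described below divide between them. Each window (GRCh38.p14) runs from 250 bases before the start to 50 after it, with the transcribed bases in capitals.
CCR6 upstream start, chr6:167111545-167111844, plus strand: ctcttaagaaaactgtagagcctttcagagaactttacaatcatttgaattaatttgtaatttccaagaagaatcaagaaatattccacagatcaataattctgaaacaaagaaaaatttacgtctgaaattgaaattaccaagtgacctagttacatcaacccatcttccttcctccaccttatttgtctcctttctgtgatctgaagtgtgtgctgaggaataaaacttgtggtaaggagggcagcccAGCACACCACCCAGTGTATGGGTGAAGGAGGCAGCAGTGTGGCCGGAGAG
CCR6 downstream start, chr6:167122503-167122802, plus strand: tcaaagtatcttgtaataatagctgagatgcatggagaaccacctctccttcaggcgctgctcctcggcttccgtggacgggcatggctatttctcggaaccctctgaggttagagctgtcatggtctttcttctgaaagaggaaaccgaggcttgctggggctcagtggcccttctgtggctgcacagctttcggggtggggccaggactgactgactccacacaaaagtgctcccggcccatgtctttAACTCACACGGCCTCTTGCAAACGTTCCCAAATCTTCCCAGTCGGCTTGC
JUN and ATF3 bind as pairs to the AP-1 site, TGANTCA, and to the related site TGACGTCA. Both were searched on both strands, and neither motif contains the other. Windows were present for 6 of the 7 receptors (11 windows), CCR7 being the other. Of these 11 windows, 1 held TGANTCA and 0 held TGACGTCA. Over all 35116 windows of the same length, 7.71% held the former and 1.85% the latter. The match lay in the window of CCR2, the receptor for CCL2, and began 212 bases before the start, where it is printed in capitals.
CCR2, chr3:46353861-46354160, plus strand: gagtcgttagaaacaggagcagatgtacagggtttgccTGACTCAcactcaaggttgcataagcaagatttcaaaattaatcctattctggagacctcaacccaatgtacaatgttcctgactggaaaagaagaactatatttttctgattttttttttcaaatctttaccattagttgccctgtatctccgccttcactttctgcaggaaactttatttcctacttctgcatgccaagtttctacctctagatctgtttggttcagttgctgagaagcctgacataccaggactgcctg
A match is a description of these letters and not evidence of binding.

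The 7 receptors spanned a wide range of levels, and 4 of them stood well above the rest. CXCR4, the receptor for CXCL12 that holds blood progenitors in the marrow, was the most abundant per length with JUN knockout libraries at 107, 101 and 101 TPM and double knockout libraries at 97.1, 112 and 115. CCR2, which draws monocytes out of the marrow, followed at 53.8, 58.2 and 58.9 TPM and at 72.9, 78.3 and 71.7 TPM. CCR1, a receptor for CCL3, CCL5 and CCL23 on monocytes and granulocytes, was at 10.5, 9.05 and 7.08 TPM and at 9.44, 11.4 and 8.12 TPM. CCR6 was the fourth, with JUN knockout libraries at 2.97, 3.2 and 2.72 TPM and double knockout libraries at 5.38, 5.21 and 5.0. This order held in each of the 6 libraries, and the TPM ranges of these 4 genes over all libraries did not overlap. Among protein-coding genes, 95.1% had a lower mean TPM than CXCR4, 91.6% than CCR2, 64.1% than CCR1 and 55.3% than CCR6.

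The other 3 receptors were close to the limit of detection. CXCR3, the receptor for the interferon-induced ligands CXCL9, CXCL10 and CXCL11, had 21, 35 and 14 reads in the JUN knockout and 13, 9 and 35 in the double knockout. CCR7, which guides cells into lymph nodes, had 33, 20 and 11 reads and 9, 17 and 19 reads. CCR3 had 5, 2 and 1 reads and 4, 8 and 5 reads, and did not pass the filter on low counts that the other 6 passed. The TPM values of these 3 genes overlapped, with means from 0.182 for CCR3 to 0.445 for CXCR3, and their order changed from library to library. The JUN knockout libraries with the most CXCR3 reads and the most CCR7 reads were different ones, replicates 2 and 1. CCR1 (chromosome 3, 46201709 to 46208396, minus strand) lies inside the span of CCR3 (46163604 to 46266706, plus strand). The kit was stranded per the labels, but the strand setting of the quantification is not given in the sources used here, so reads of this overlap are uncertain for CCR3.

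**Figure D1:**
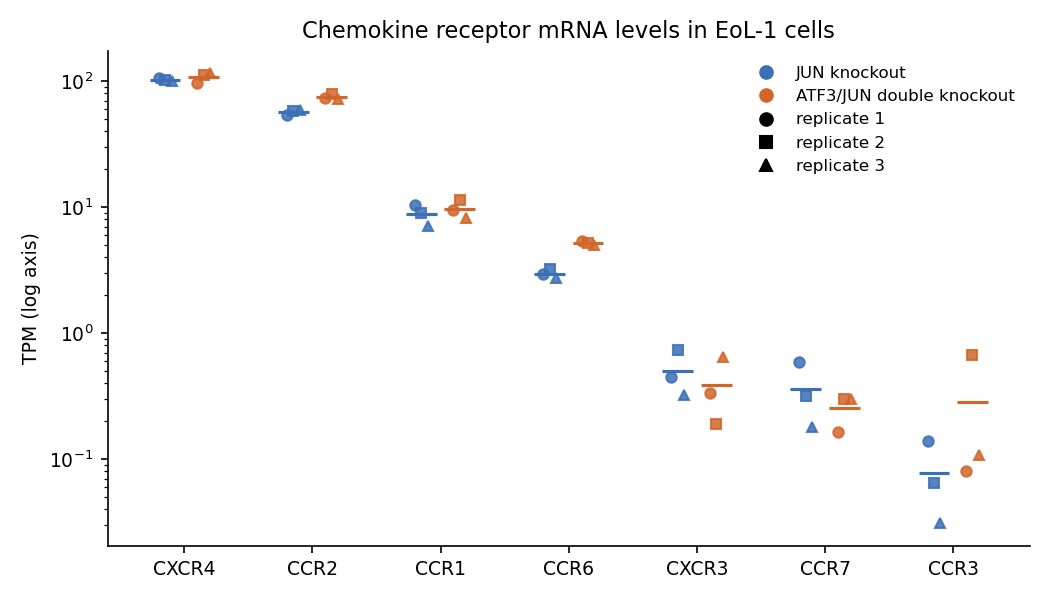
TPM of the 7 receptors (log axis) in each library, with blue for the JUN knockout, orange for the ATF3/JUN double knockout, symbols for the replicate number and lines for group means (n = 3). CXCR4, CCR2, CCR1 and CCR6 keep this order in every library, and CXCR3, CCR7 and CCR3 overlap below 1 TPM.

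CCR6 was higher in the double knockout, where its level lay closer to that of CCR1 but stayed far below CCR2 and CXCR4. Its CPM was 9.45, 11.1 and 9.62 in the JUN knockout and 17.2, 16.1 and 17.0 in the double knockout. The groups did not overlap, and the lowest double knockout library stood well above the highest JUN knockout library. Group means were 10.0 ± 0.898 and 16.8 ± 0.599 CPM (SD, n = 3 each), a 1.67-fold ratio, and the log2 fold change was 0.74 (SE 0.11). Same-numbered libraries differed by 0.87, 0.54 and 0.82 on the log2 scale. The pair with the smallest difference was number 2, in which the JUN knockout library was the highest of its group and the double knockout library the lowest of its group. JUN knockout replicate 1, which stood apart over all genes, had the lowest CCR6 of its group in CPM, and double knockout replicate 3, which also stood apart, had the middle value in CPM and the lowest in TPM. Without JUN knockout replicate 1 the log2 fold change was 0.70, and without double knockout replicate 3 it was 0.73.

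Set against the other receptors within a library, CCR6 made up 1.7, 1.86 and 1.6% of the summed TPM of the 7 genes in the JUN knockout and 2.9, 2.51 and 2.49% in the double knockout. CXCR4 was 35.9, 31.6 and 37.0 times as abundant as CCR6 per length in the JUN knockout and 18.1, 21.4 and 23.1 times in the double knockout. CCR2 exceeded CCR6 18.1, 18.2 and 21.7 times and then 13.6, 15 and 14.3 times, so that this ratio was lower in each double knockout library although CCR2 was itself higher there. The nearest receptor was CCR1, at 3.52, 2.83 and 2.6 times the TPM of CCR6 in the JUN knockout and 1.76, 2.19 and 1.62 times in the double knockout.

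CCR2 (ENSG00000121807, chromosome 3, 46353734 to 46360928, plus strand) was the other receptor whose groups did not overlap. It was at 119, 137 and 140 CPM in the JUN knockout and 164, 179 and 172 CPM in the double knockout, with means of 132 ± 11.3 and 171 ± 7.18 CPM (SD, n = 3 each). Its log2 fold change was 0.38 (SE 0.09), and the pairs differed by 0.46, 0.38 and 0.29 on the log2 scale. All 3 pairs had more CCR2 in the double knockout, in smaller proportion than CCR6. Any pairing of groups that do not overlap gives this direction.

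CXCR4 and CCR1 overlapped between the groups. CXCR4 (ENSG00000121966, minus strand of chromosome 2, 136114349 to 136118165) had 162, 172 and 176 CPM against 158, 175 and 197, with pair differences of −0.04, 0.03 and 0.17 on the log2 scale. The fitted value was 0.06 (SE 0.10), and −0.029 without double knockout replicate 3. CCR1 (ENSG00000163823) had 27.0, 25.8 and 20.6 CPM against 26.1, 30.2 and 23.3, for which the fit gave 0.12 (SE 0.15). In both groups replicate 3 had the lowest CCR1 and the highest CXCR4 in CPM. In TPM, JUN knockout replicate 3 had the lowest CXCR4 of its group (106.5, 101.1 and 100.6). CCR7 (ENSG00000126353, chromosome 17, 40553769 to 40565472) had a log2 fold change of −0.48 (SE 0.45), and CXCR3 (ENSG00000186810, chromosome X, 71615916 to 71618517) one of −0.28 (SE 0.54). Their pair differences ran from −1.74 to 0.67 and from −1.88 to 1.2, so neither kept a direction. Without JUN knockout replicate 1 the CCR7 value was −0.029. Leaving out replicate 2 of the JUN knockout gave 0.092 for CXCR3. Leaving out replicate 2 or 3 of the double knockout gave 0.044 or −0.99.

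**Figure D2:**
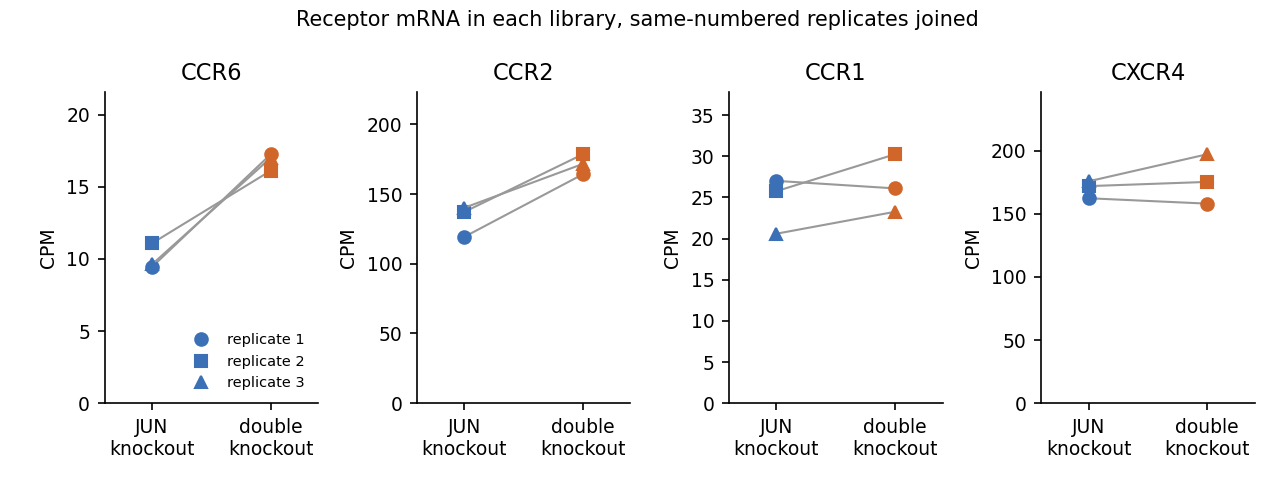
CPM of CCR6, CCR2, CCR1 and CXCR4 in each library (axes from 0), with grey lines joining same-numbered libraries of the JUN knockout (blue) and the double knockout (orange). The groups are separate for CCR6 (9.45 to 11.1 against 16.1 to 17.2 CPM) and CCR2 (119 to 140 against 164 to 179 CPM) and overlap for CCR1 and CXCR4.

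Across all genes, edgeR's quasi-likelihood test with Benjamini-Hochberg adjustment at 0.05 called 0 of 12954 genes (0.0%), and 753 had an unadjusted p under 0.05. No receptor passed. DESeq2 called 71 (0.548%), of which 30 (0.232% of those tested) were higher in the double knockout. CCR6 and CCR2 were among these 30, and CCR6 had been chosen by this same contrast. Groups failed to overlap, with higher values in the double knockout, in 2 of the 6 tested receptors and in 6.31% of all tested genes. They failed to overlap in the other direction in 0 of the 6 and in 5.94% of all tested genes. The receptors were chosen with this contrast known, and these counts are given beside their background only.

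The higher level of CCR6 did not sit on the same transcript in each pair. CCR6-203 begins at the upstream start and CCR6-201 and CCR6-202 at the downstream start, 10964 bases further on for the latter, and all 3 encode the same number of residues, 374. Transcripts of the upstream start summed to 1.53, 1.23 and 1.5 TPM in JUN knockout libraries, against 3.08, 1.44 and 1.86 in double knockout libraries. Those of the downstream start summed to 1.44, 1.98 and 1.22 TPM and to 1.82, 3.77 and 3.14 TPM. In pair 1 the upstream start thus differed most, and in pairs 2 and 3 the downstream start did. The share of CCR6 reads assigned to the upstream start was 51.7, 38.9 and 56.0% in the JUN knockout and 61.1, 29.5 and 38.8% in the double knockout, with overlapping groups. A shorter transcript of 1729 bases, with its own start and the same coding length, had 20.1 reads in double knockout replicate 1 and 0 in the other 5 libraries. Reads in the shared exons are divided by Salmon's estimate, whose own error is not known here.

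**Figure D3:**
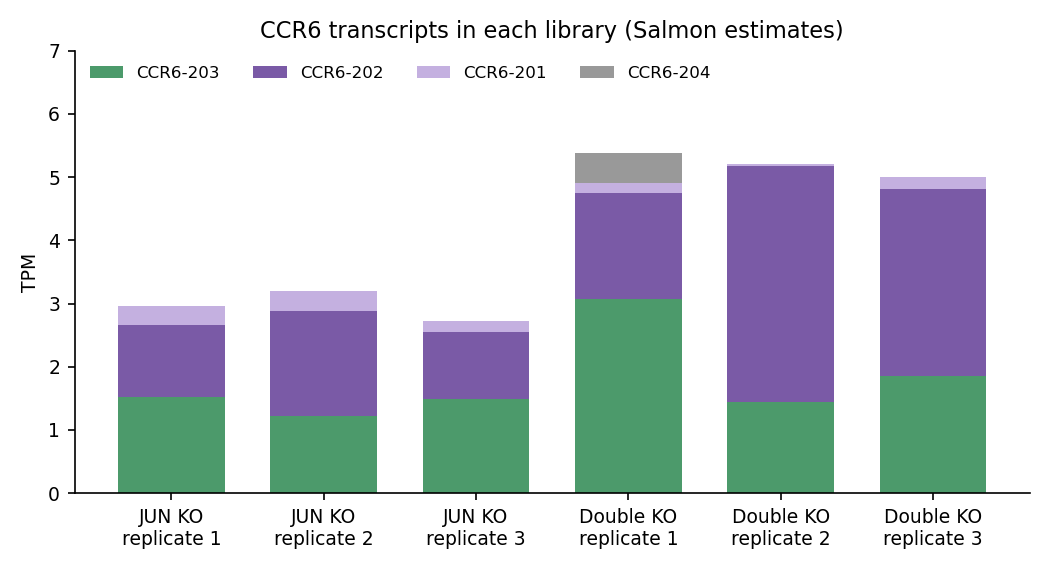
Stacked bars of TPM for the 4 CCR6 transcripts with reads, per library, as Salmon estimated them. The total is 2.72 to 3.2 TPM in the JUN knockout and 5.0 to 5.38 TPM in the double knockout, while the split between CCR6-203 (upstream start) and CCR6-202 (downstream start) varies between libraries of 1 group.

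For CCR2, by contrast, both main transcripts were higher in the double knockout. CCR2-202, which encodes 374 residues, had 28.4, 32.4 and 31.4 TPM in JUN knockout libraries, against 36.3, 40.0 and 37.9 in double knockout libraries. The transcript with another coding end, of 360 residues, was at 25.5, 23.7 and 24.4 TPM and at 32.3, 38.2 and 31.8 TPM. They carried 52.0% and 47.6% of the reads of the gene, and neither overlapped between the groups. The printed window with the TGACTCA match belongs to a start 15 bases before that of CCR2-203, a transcript with 0.46% of the reads.

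CXCR4 was mostly the transcript for the 352-residue receptor, CXCR4-201, with 85.2% of the reads. CXCR4-202, whose product has 356 residues, had 4.54, 7.32 and 10.3 TPM in JUN knockout libraries, against 2.04, 2.61 and 6.84 in double knockout libraries. Each of the 3 pairs had less of it in the double knockout, although the groups overlapped because double knockout replicate 3 exceeded JUN knockout replicate 1. The transcript without a coding sequence, CXCR4-203, was at 15.3, 7.84 and 7.98 TPM and at 12.6, 11.2 and 7.92 TPM. CCR1 has a single annotated transcript. The reads of CXCR3 were given wholly to CXCR3-201 (415 residues) or wholly to CXCR3-202 (368 residues) in 5 of the 6 libraries, a split too uncertain at 9 to 35 reads to be read as isoform use.

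The genes around CCR6 had values close to or below 0. Of its protein-coding neighbours within 500 kb, 4 were tested, and edgeR called 0 (1, CEP43, at an unadjusted p under 0.05). RNASET2, a secreted ribonuclease gene, was at 131 ± 6.63 and 137 ± 5.26 CPM (SD, n = 3 each; log2 fold change 0.06, SE 0.08). CEP43, a centrosome gene, was at 68.3 ± 0.792 and 60.1 ± 3.2 CPM (−0.18, SE 0.08), with the groups apart in the direction opposite to CCR6. RPS6KA2, a kinase gene, had a log2 fold change of 0.02 (SE 0.29), and the unnamed gene ENSG00000249141 one of −0.47 (SE 0.46). CCR1, CCR2 and CCR3 lie in the receptor cluster of chromosome 3, where CCRL2, XCR1, CXCR6 and CCR9 also map. CCRL2 and XCR1 had at most 1 read per library, and CXCR6 and CCR9 none. The flanking genes tested there were SACM1L (log2 fold change 0.06, SE 0.08), LIMD1 (−0.02, SE 0.08), FYCO1 (0.24, SE 0.11) and LRRC2 (−0.29, SE 0.41), and none passed. FYCO1, an adaptor gene of vesicle transport, had 28.1, 31.6 and 30.2 CPM against 33.0, 40.0 and 33.1, so that its groups were apart in the same direction as those of CCR2.

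The remaining receptors of the family were mostly silent. Of 16, 2 reached a mean of 1 TPM, 3 were tested and edgeR called 0 (none at an unadjusted p under 0.05). CXCR2, the neutrophil receptor for CXCL8, was at 3.78 ± 0.913 and 3.81 ± 0.626 CPM (SD, n = 3 each). Per length it was at 1.11, 1.56 and 1.07 TPM against 3.85, 1.07 and 3.73 in the double knockout, with overlapping groups. CX3CR1, the fractalkine receptor of monocytes, had 190, 52 and 48 reads in the JUN knockout and 96, 90 and 78 in the double knockout, with its highest value in JUN knockout replicate 1. CCR4, a receptor of T helper and regulatory T cells, was at 0.484 ± 0.14 and 0.403 ± 0.014 CPM. CCR8, CCR9, CXCR6, ACKR1 and ACKR3 had 0 reads in all 6 libraries, which allows up to 0.102 to 0.115 CPM, before TMM scaling, in a library (3 reads, counting error only). The median log2 fold change of the 3 tested genes was −0.10, against 0.0032 over all tested genes. It was −0.41 without replicate 2 of the JUN knockout and between −0.21 and −0.029 with any other library left out. It turned above 0 with the replicate number as a block (0.026) and with the length offset (0.52).

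Many of the ligand genes had no reads assigned to them at this depth. Of the 46 ligand genes in the table, 24 had 0 reads in all 6 libraries, among them the CCR3 ligands CCL11 and CCL26, the CCR7 ligands CCL19 and CCL21, the CCR2 ligands CCL8 and CCL13 and the CXCR4 ligand CXCL12. CCL20, the ligand of CCR6, had 2, 3 and 2 reads in the JUN knockout and 1, 1 and 3 in the double knockout. The CCR2 ligand CCL2 was present at 17.2, 10.2 and 4.39 CPM and at 11.7, 13.8 and 6.89 CPM, with replicate 3 lowest in both groups. Of the 9 ligands tested, edgeR called 0 and DESeq2 called 0, with 2 at an unadjusted p under 0.05 in edgeR, and the median log2 fold change was 0.026. That median turned below 0, to between −0.22 and −0.010, when any library was left out.

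Those 2 were ligands of receptors described here. CCL23, a CCR1 ligand, was at 1.21, 1.4 and 1.12 CPM in the JUN knockout and 1.85, 2.05 and 2.08 CPM in the double knockout (log2 fold change 0.68, SE 0.21, edgeR adjusted p = 0.789), from 29 to 59 reads. CXCL10, a CXCR3 ligand induced by interferon, was at 0.55, 1.98 and 1.46 CPM and at 0.44, 0.64 and 0.50 CPM (−1.33, SE 0.48, edgeR adjusted p = 0.838), and overlapped because JUN knockout replicate 1 was low. CXCL11, which shares that receptor, was at 2.07 ± 0.406 and 1.47 ± 0.661 CPM (SD, n = 3 each). CXCL9 had at most 1 read per library and CCL24, a CCR3 ligand, at most 2. CCL3 and CCL7, which bind CCR1 and CCR2 among others, had at most 10.4 and 2.0 reads. MIF, a cytokine that can bind CXCR4 and CXCR2, was the most abundant of the list at 128 ± 46.7 and 131 ± 24.4 CPM.

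CCL5, a ligand of CCR1 and CCR3, could not be compared from its own gene. JUN knockout libraries held 0, 483 and 416 of its reads and double knockout libraries 692, 0 and 435. A transcript outside the annotation used here, 1365 bases long against 1352 for CCL5, had 778 reads in JUN knockout replicate 1, 456 in double knockout replicate 2 and 0 in the other 4. The 2 sets of libraries were exact complements. With both added, CCL5 had 778, 483 and 416 reads and 692, 456 and 435 reads, and its log2 fold change went from 0.37 (SE 1.59) to −0.036 (SE 0.30). The sequence of that transcript was not used here, and whether it is a copy of CCL5 was not tested. CCL3, CCL4 and CCL23 lie in the same ligand cluster on chromosome 17, where transcripts outside the annotation were not used. Low or absent reads of genes in this cluster, such as the 0 reads of CCL4, are therefore uncertain.

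The machinery downstream of the receptors was abundant, and none of its genes passed the test. Of 35 G protein and effector genes, 32 were tested, edgeR called 0 and DESeq2 called 0, with 2 at an unadjusted p under 0.05 in edgeR. The median log2 fold change was 0.0022, with 18 above and 14 below 0, and it was −0.0026 under RLE scaling. GNAI2, the main Gi subunit of leukocytes, was at 312 ± 20.0 and 298 ± 21.6 CPM, and GNB1, a beta subunit, at 361 ± 12 and 361 ± 8.35 CPM (SD, n = 3 each). RHOA and RAC2, small GTPases of migration, were at 599 ± 43.2 and 614 ± 47.0 and at 342 ± 38.2 and 342 ± 22.5 CPM. PTK2B, DOCK8 and PIK3CD were also among the most abundant. DOCK2, a Rac activator needed for leukocyte migration, was at 296 ± 18.1 and 344 ± 22.5 CPM (log2 fold change 0.22, SE 0.09, edgeR adjusted p = 0.854). FGR, a Src-family kinase, had the highest value of the list at 1.03 (SE 0.38, edgeR adjusted p = 0.838) from 7 to 23 reads, and TIAM1 the lowest at −0.32 (SE 0.61).

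Genes for desensitisation and trafficking were likewise abundant. Of 25, 22 were tested, edgeR called 0 and DESeq2 called 0, none had an unadjusted p under 0.05 in edgeR, and the median log2 fold change was 0.066. With 1 library left out that median was between 0.022 (replicate 1 of the double knockout) and 0.083. GRK2, the kinase that phosphorylates active receptors, was at 717 ± 75.9 and 720 ± 77.9 CPM, and the arrestins ARRB1 and ARRB2 at 245 ± 26.5 and 248 ± 27.1 and at 212 ± 4.35 and 198 ± 11.3 CPM (SD, n = 3 each). RGS16, which speeds the shut-off of Gi, had the highest value of the list, 0.48 (SE 0.46), and RGS2 the lowest, −0.33 (SE 0.42).

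Other receptors for chemoattractants were present beside CXCR4 and CCR2, in a list that also held adhesion receptors such as ADGRE5. Of 28, 17 were tested, edgeR called 0 and DESeq2 called 0, none had an unadjusted p under 0.05 in edgeR, and the median log2 fold change was 0.11, with 11 above and 6 below 0. With 1 library left out that median was between 0.021 (replicate 3 of the double knockout) and 0.15, and it was 0.054 and 0.059 without replicate 3 of the JUN knockout and replicate 1 of the double knockout. ADGRE5, the adhesion receptor CD97, was at 93.0 ± 18.6 and 100 ± 14.7 CPM, and S1PR4, a receptor for sphingosine 1-phosphate, at 81.3 ± 3.82 and 90.7 ± 4.38 CPM (SD, n = 3 each). PTAFR, the receptor for platelet-activating factor, CYSLTR1, a leukotriene receptor, and LTB4R, the receptor for leukotriene B4, were at 69.4 ± 13.9 and 69.2 ± 19.3, at 47.1 ± 8.48 and 45.4 ± 4.66, and at 42.8 ± 2.8 and 45.7 ± 4.16 CPM. PTGDR2, the prostaglandin D2 receptor of eosinophils, had at most 2 reads per library. C5AR1, a complement receptor, had the highest log2 fold change of the list, 0.62 (SE 0.60), and S1PR3 the lowest, −0.38 (SE 0.19).

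**Figure D4:**
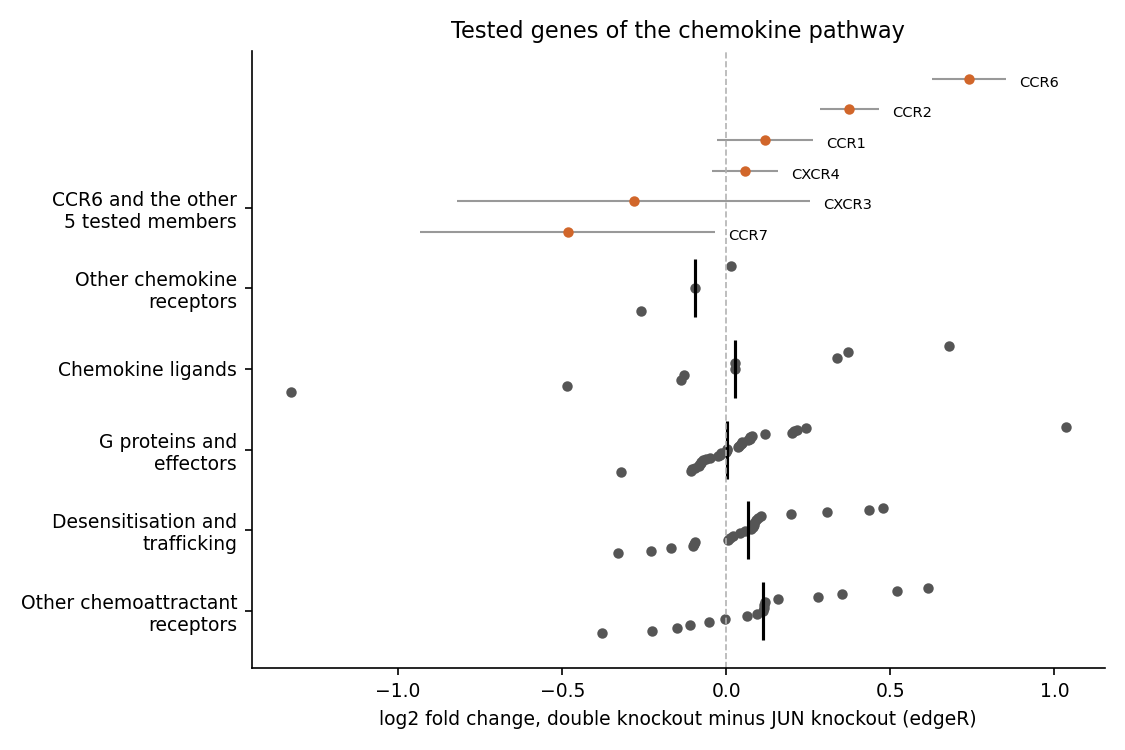
Log2 fold change (double knockout minus JUN knockout, edgeR) of the tested receptors in orange with bars of 1 SE, and of each tested gene of 5 other lists in grey with the list median as a black line. CCR6 (0.74) and CCR2 (0.38) are the highest of the receptors, the list medians lie between −0.10 and 0.11, and no gene shown passed the edgeR test.

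Markers of the lymphoid and dendritic cells on which CCR6 is best known were mostly at or near 0. Of 8 B cell markers, of which CCR6 itself is a member, CD79A was the other that reached 1 TPM in each group. MS4A1, which encodes CD20, had at most 1 read in a library, and PAX5 at most 11. CD79A had 8.08, 2.21 and 2.28 TPM in JUN knockout libraries, against 8.09, 4.9 and 3.16 in double knockout libraries, so its groups overlapped where those of CCR6 did not. The summed TPM of the B cell list was 6.33 to 12.7 and 10.3 to 14.2. The T cell list summed to 2.12 to 4.81 and 2.5 to 3.05 TPM, with CD3E and CD8A at 0 in all 6 libraries. Of its 9 markers, 1 reached 1 TPM in each group. It was IL7R, with mean TPM of 2.63 in the JUN knockout and 1.98 in the double knockout, most of the list's sum. The dendritic list summed to 44.5 to 81.2 and 60.8 to 82.0 TPM, most of it from FLT3, a receptor also found on progenitors, with CD207 and CLEC9A at 0. The monocyte list summed to 113 to 294 and 129 to 326 TPM and the neutrophil list to 45.5 to 113 and 72.8 to 118 TPM. Over all tested genes, groups were apart in CPM in 6.31% with higher and in 5.94% with lower values in the double knockout. Besides CCR6, 1 gene of these marker lists had groups apart with higher values in the double knockout. It was CSF3R, the receptor for the neutrophil growth factor G-CSF, at 26.5, 25.4 and 25.1 CPM against 47.0, 32.9 and 37.0 (log2 fold change 0.60, SE 0.14, edgeR adjusted p = 0.697). CSF1R, the growth factor receptor of monocytes, overlapped between the groups at 21.9 ± 2.79 and 29.1 ± 5.44 CPM (SD, n = 3 each), with a log2 fold change of 0.41 (SE 0.16). Groups were apart in the other direction, in CPM, for the eosinophil markers SMPD3 and ALOX15 and the dendritic marker CD1A. Per length SMPD3 went the opposite way, at 0.437, 0.582 and 0.505 TPM against 0.665, 0.642 and 0.772 in the double knockout. ALOX15, at 1.1 to 8.0 reads, did not pass the filter on low counts. These marker genes were named after their values were seen. Their part in the CCR6 difference was not tested.

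Among 11365 other tested genes with a symbol and at least 1 CPM, those whose pattern over the 6 libraries was most like that of CCR6 were MUC1, CCL23, ABHD14B, AP5B1 and PTDSS2. The measure was the root mean square difference of log2 CPM centred on each gene's own mean, which was 0.094, 0.12, 0.12, 0.12 and 0.13 for these genes and 0.40 for the median gene. MUC1, a membrane mucin, was at 3.12 ± 0.23 and 6.13 ± 0.422 CPM (SD, n = 3 each), with a log2 fold change of 0.97 (SE 0.16). Per length the MUC1 groups overlapped, at 6.46, 5.74 and 1.46 TPM against 2.21, 7.79 and 20.4 in the double knockout. ABHD14B, an alpha/beta hydrolase, was at 37.8 ± 4.39 and 54.9 ± 2.12 CPM (0.54, SE 0.10), and PTDSS2, a phosphatidylserine synthase, at 18.1 ± 0.611 and 27.0 ± 2.76 CPM (0.58, SE 0.11). AP5B1, a subunit of an endosomal adaptor, was at 88.3 ± 3.82 and 127 ± 2.25 CPM (0.53, SE 0.07). In CPM the groups of all 5 were apart in the direction of CCR6, which their choice by likeness to it brings about.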

How the data were processed

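RNA-seq was made from polyA RNA with a stranded Illumina kit, per the labels' protocols. The submitters' processing notes name FastQC 0.11.9, Salmon 1.6.0 and hg38. The deposited files give an estimated count and a TPM value for each of 177456 transcripts per library, per the file headers. Of these, 167027 (94.12%) had an unversioned Ensembl identifier in GENCODE release 29 (GRCh38), and the rest, with 3.58 to 3.71% of the reads, were left out of the gene table. The sum over a gene's transcripts was rounded to a whole number. edgeR 4.0.16 (R 4.3.3) was run with filterByExpr, TMM, robust quasi-likelihood F tests, two-sided, with group as the single term and adjustment over all 12954 genes kept. The fit was tested on simulated data, and the outcome is not given here. Each edgeR SE is the absolute log2 fold change over the square root of its F statistic. CPM was computed after TMM scaling.

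The receptors and gene lists were chosen with earlier results of these data known. Named genes were the receptors, JUN, ATF3, and, in each list, up to 8 abundant genes, the lowest and highest fold change and the ligands of the receptors, with the neighbours and the 5 genes most like CCR6 (log2 of CPM plus 0.5). The genes with 0 reads and others named for a low count or an unadjusted p were named after their values were seen. Same-numbered libraries were taken as pairs from a code shared in the names of the deposited files. Correlations of their deviations from group means were 0.328, 0.096 and 0.412. Libraries with different numbers gave −0.413 to 0.112. The highest of these, JUN knockout replicate 1 with double knockout replicate 2, exceeded the 0.096 of pair 2. Alternatives were RLE scaling, no low-count filter, DESeq2 1.42.0, the pairing as a block, a transcript length offset and each library left out.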

Additional observations from a re-analysis of the deposited data

Results flagged for a closer look

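A transcript outside the annotation, near CCL5 in length, carried 778.3 estimated reads in JUN knockout replicate 1 and 455.8 in double knockout replicate 2, above the 3 reads that a count of 0 allows. It was noticed because these reads belong to no gene of the table and CCL5 itself had 0 reads in exactly those libraries.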

How the results depend on the processing

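The log2 fold changes of CCR6 (0.69 to 0.81) and CCR2 (0.31 to 0.42) kept their direction under all 12 alternatives, as did those of CCR1 (0.0088 to 0.28) and CCR7 (−0.78 to −0.029). With the replicate number as a block (the pairing), edgeR called 0 genes, and it changed no call. DESeq2 called 71 genes over all (0.548% of those tested), 0 in the pathway lists. Those lists leave out the 7 receptors, of which DESeq2 called CCR6 and CCR2. CCR6 had been chosen by this same contrast and the others with it known, so calls of receptors are descriptions. With no low-count filter edgeR called 1 gene, outside the lists. A last alternative, added after the data were seen, left out JUN knockout replicate 1 and double knockout replicate 3. These are the libraries farthest from their group. edgeR then called 860 of 12943 genes, and 6 in the lists. CCR6, chosen by this contrast, was among the 860, and CCR2 was not. The libraries kept are the closest pair of each group by construction, so their spread is understated, and the count is not a better estimate. There CXCR4 turned to −0.061, CCL5 to −0.27 and the ligand median to −0.30, while CXCR3 stood at −1.06 and the G protein and effector median at 0.1032. With single libraries left out, CXCR3 ran from −0.99 to 0.092, CXCR4 from −0.029 to 0.13, CCL5 from −0.53 to 0.96, the ligand median from −0.22 to −0.010 and the G protein and effector median from −0.024 to 0.066. That last median was −0.0026 with RLE scaling, −0.0025 with DESeq2 and −0.0001 with the length offset, and the median of the other receptors 0.026 with the block and 0.52 with the offset (−0.41 to −0.029 with single libraries left out). The causes were not tested. CCL5 was −0.036 with the similar-length transcript added. CCR3, CCR7 and CXCR3, at 1 to 35 reads, are limited by depth.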
